A study of Mus musculus with 6 samples.

Results

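Sox9, Sox17, Sox4, Sox11 and Sox2 were followed by name in single-cell data of the mouse embryonic pancreas. These 5 genes were taken by symbol from an RNA matrix of 31028 genes and from ATAC matrices of 8269 genes, and all 5 are listed in both. They belong to 19 numbered Sox genes in the RNA matrix and 12 in the ATAC matrices. The tissue came from C57BL/6 embryos that were either Ptf1a+/+ (WT) or Ptf1aenh-delta/enh-delta (KO), which carry a deletion of a Ptf1a enhancer on both alleles. Ptf1a encodes a transcription factor that early pancreatic progenitors need. At embryonic day 10.5 (E10.5), 5 to 9 embryos per dataset were pooled for RNA and for ATAC, and the labels name this tissue as pancreatic multipotent progenitor cells. At E13.5, whole pancreas from 6 embryos per dataset was pooled for ATAC. Each genotype, stage and assay is 1 library, so no difference between genotypes has a replicate check and no test was made. Every interval below is an exact 95% interval that covers counting error only.

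SOX proteins are transcription factors that bind DNA through a shared HMG box and often act with partner factors. In the embryonic pancreas Sox9 marks and maintains the progenitor epithelium, and it later stays on in duct cells and is needed for endocrine precursors. Sox17 marks early endoderm, endothelium and the pancreatobiliary progenitors that form the gallbladder and bile duct, where it sets the biliary against the pancreatic fate. Sox4 and Sox11 belong to the SoxC group, which is broadly active in immature and mesenchymal cells, and Sox4 also serves endocrine differentiation. Sox2 marks the foregut that becomes stomach and oesophagus.

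In RefSeq's annotation of GRCm38.p6 all 5 genes are protein-coding. Sox9 spans chr11:112782210-112787757, Sox17 chr1:4490928-4497426, Sox4 chr13:28948919-28953699, Sox11 chr12:27334268-27342718 and Sox2 chr3:34649995-34652461. The 250 bases before the start of Sox4 and Sox11 are shown because the RNA of these genes was higher in KO in the same cell groups, and those of Sox2 for contrast. Capitals mark CCAAT or its reverse complement ATTGG, the only motif marked. Sequences are RefSeq's, GRCm38.p6, 5′ to 3′ on the gene's strand.
Sox4, chr13:28953700-28953949, minus strand: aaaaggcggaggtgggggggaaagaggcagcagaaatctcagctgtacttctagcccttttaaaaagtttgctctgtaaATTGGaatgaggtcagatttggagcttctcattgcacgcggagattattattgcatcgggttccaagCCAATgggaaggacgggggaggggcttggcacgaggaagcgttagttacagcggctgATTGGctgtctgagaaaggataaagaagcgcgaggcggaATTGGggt
Sox11, chr12:27342719-27342968, minus strand: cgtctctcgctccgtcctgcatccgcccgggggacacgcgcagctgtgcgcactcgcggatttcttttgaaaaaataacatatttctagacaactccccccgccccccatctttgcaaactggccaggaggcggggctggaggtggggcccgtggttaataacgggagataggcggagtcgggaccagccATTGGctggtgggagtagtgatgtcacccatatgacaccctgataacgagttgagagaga
Sox2, chr3:34649745-34649994, plus strand: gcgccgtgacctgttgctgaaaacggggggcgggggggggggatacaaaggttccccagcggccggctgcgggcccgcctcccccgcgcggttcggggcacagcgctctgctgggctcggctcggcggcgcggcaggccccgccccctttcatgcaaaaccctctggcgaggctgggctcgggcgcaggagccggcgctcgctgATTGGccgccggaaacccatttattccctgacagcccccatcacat
Sox4 held 4 such matches, and Sox11 and Sox2 held 1 each. Of 32851 promoter windows of this length, 33.8% held at least 1 match on either strand and 10.1% held at least 2. Searched the same way, TATAAA was in 12.4% of the windows and AACAAT in 9.42%, and neither was in the 3 sequences. ACAAAG was in 16.5% of the windows and once in Sox2. Overlaps between AACAAT and ACAAAG matches were not separated, and a match describes letters only.

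The RNA libraries held 4665222 UMIs (unique molecules counted) in 1104 WT barcodes and 4360076 in 815 KO barcodes. Barcodes with at least 1000 genes were kept as cells, which left 451 WT cells with a median of 6700 UMIs and 369 KO cells with a median of 9856. Ptf1a itself had 142 UMIs in the kept WT cells, 108 of them in the progenitor-like cells described next, and 0 in KO cells of any cluster. WT and KO shared 1 barcode in the RNA, 0 in the E10.5 ATAC and 2 in the E13.5 ATAC data. The cells were clustered without Ptf1a, the acinar genes and all Sox genes, so that levels of the 5 genes did not define the clusters.

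The labels' term progenitor fitted only some of the cells. A progenitor-like cluster (Nepn, Spon1, Spp1) held 108 WT and 37 KO cells. A hepatobiliary-like cluster (Itih2, Paqr9, Car4, Hhex) held 16 WT and 36 KO cells, with 10 of 16 hepatobiliary markers raised. In these cells the liver protein genes Ttr and Afp stood at 1548 and 702 CPM (a gene's UMIs per 1000000 UMIs of those cells) in WT and at 1710 and 730 CPM in KO. Alb stood at 21.8 and 32.9 CPM, the duct keratin Krt19 at 43.6 and 62.2 CPM, and Cftr at 0, so bile duct cells could not be told apart from liver progenitors and the broader name is used. The other clusters were endocrine-like with hormone genes (53 WT and 99 KO cells), endocrine-like with Neurog3 (13 and 41), mesenchyme-like (154 and 100), a cluster led by Ube2c and histone genes that stayed unnamed and is called the Ube2c cluster (86 and 21), and another unnamed cluster with mesenchymal and endocrine markers both raised (21 and 35). This last cluster had the highest median depth, 21737 UMIs in WT and 17169 in KO. Mixed cells in it were not tested for beyond the doublet calls (1 and 0). The summed hepatobiliary list was 9817 CPM in WT and 7480 CPM in KO hormone-cluster cells, where 2 of 16 markers were raised. It was 3924 and 3125 CPM in the last cluster, and 3331 and 4191 CPM in hepatobiliary-like cells. A high sum is thus not particular to hepatobiliary-like cells.

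**Figure D1:**
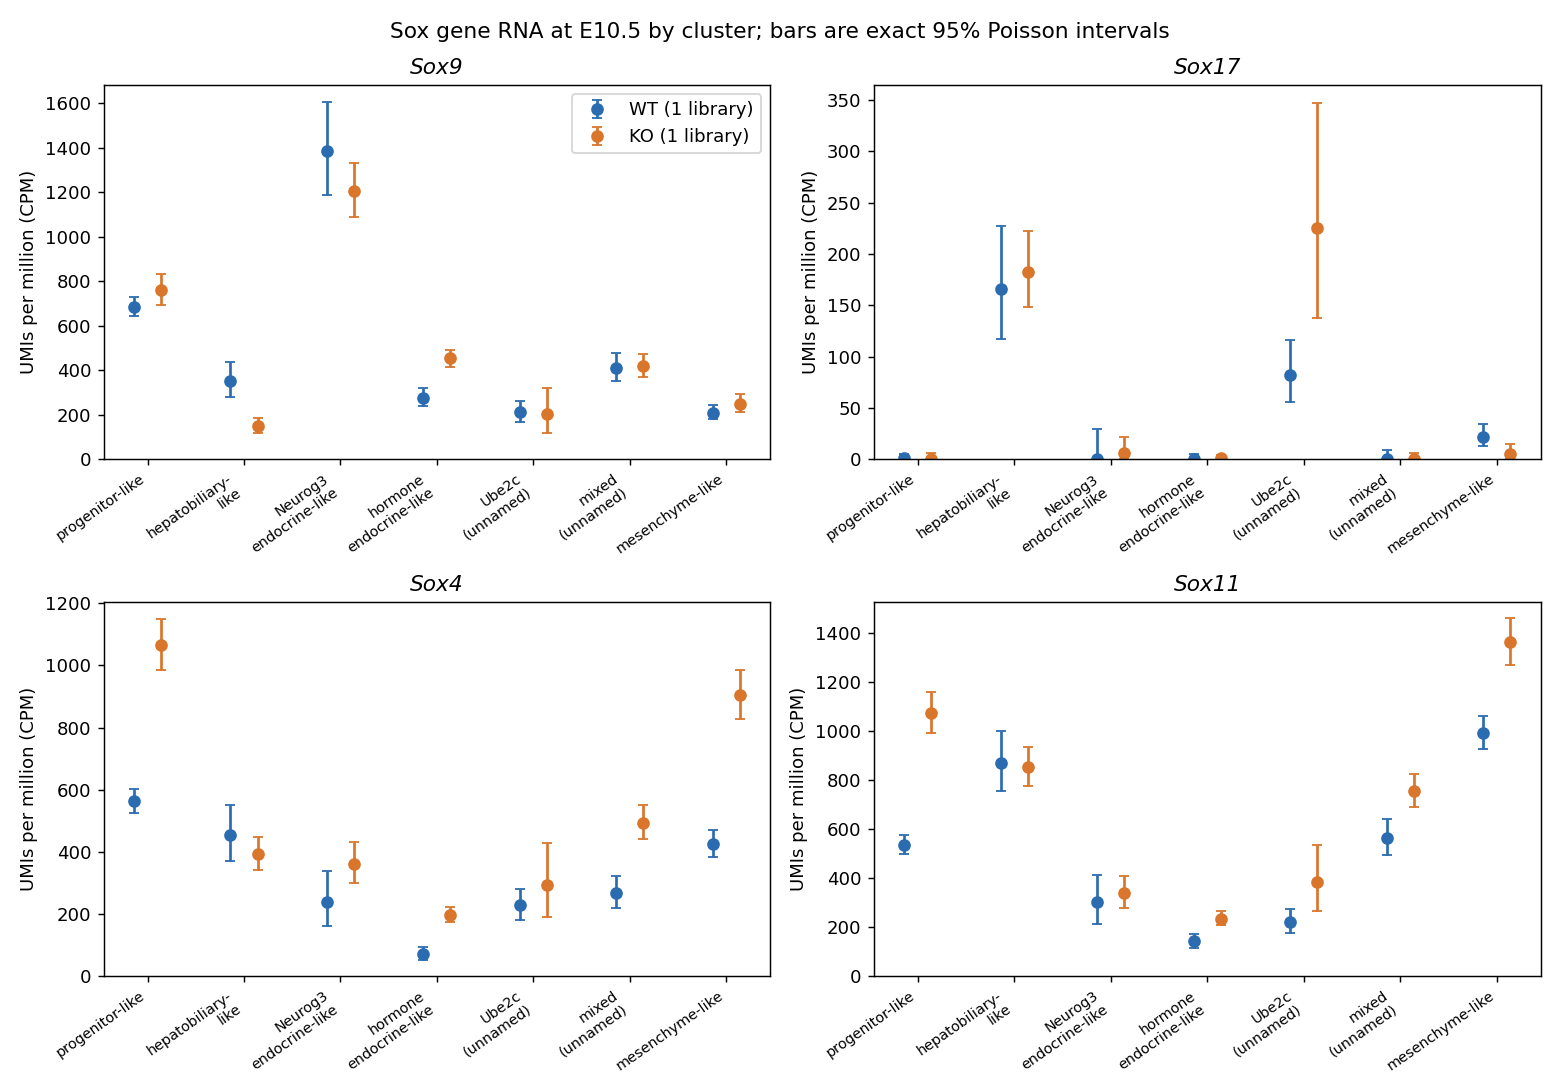
RNA of Sox9, Sox17, Sox4 and Sox11 in CPM (y axis) in each E10.5 cluster (x axis), with WT in blue and KO in orange, 1 library each; bars are exact 95% Poisson intervals. Sox9 was highest in the Neurog3 cluster, Sox17 was highest in the hepatobiliary-like and the Ube2c cluster, and Sox4 and Sox11 were higher in KO progenitor-like and mesenchyme-like cells.

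Sox9 RNA was highest in the endocrine-like cells with Neurog3, the transcription factor that starts endocrine differentiation, with 1387 CPM in WT (1189 to 1609) and 1205 CPM in KO (1089 to 1330). Progenitor-like cells came next with 686 CPM in WT (644 to 730) and 761 CPM in KO (693 to 833). These levels of the first 2 clusters do not overlap within either library. In WT the next clusters were the unnamed one with mesenchymal and endocrine markers (411 CPM, 350 to 478), the hepatobiliary-like one (353, 280 to 439), the hormone cluster (277, 239 to 319), the Ube2c cluster (211, 168 to 263) and the mesenchyme-like cluster (210, 180 to 243). Each of these overlaps its neighbour in that order. In KO the hormone cluster stood at 454 CPM (416 to 493), the unnamed mixed one at 419 (370 to 471), the mesenchyme-like at 250 (211 to 294), the Ube2c at 202 (120 to 320) and the hepatobiliary-like at 148 (118 to 184). The hepatobiliary-like cells thus held the lowest Sox9 level of the 7 KO clusters, though its interval overlaps that of the Ube2c cluster.

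At least 1 Sox9 UMI was seen in 95.4% of WT and 97.3% of KO progenitor-like cells. Where Sox9 is not a marker, in mesenchyme-like cells, the share was 27.9% and 33%, at median depths of 2442 and 2495 UMIs against 12880 and 16156. Barcodes below the gene minimum, which can hold free RNA, gave Sox9 at 89.5 CPM in WT and 74.7 CPM in KO, below every cluster. Thinned to 2000 UMIs per cell, the shares were 72.6% and 65.7% in progenitor-like cells (2 shallower cells left out in each library) and 18.3% and 23% in mesenchyme-like cells (50 and 39 left out). Sox9 detection therefore still separated progenitor-like from mesenchyme-like cells at equal depth.

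The place of Sox9 RNA in the tissue differed between the libraries. Progenitor-like cells held 53% of all Sox9 UMIs in WT and 24.4% in KO. In KO the hormone cluster held 28.4% and the Neurog3 cluster 20.5%, against 10.2% and 9.45% in WT. The sizes of the clusters differed too. Progenitor-like cells were 23.9% of WT and 10% of KO cells, hormone-cluster cells 11.8% and 26.8%, and Neurog3-cluster cells 2.88% and 11.1%. Of all kept UMIs, progenitor-like cells held 1429937 of 4106604 in WT and 616626 of 4011819 in KO. Hormone-cluster cells held 683510 and 1203785. The part of these sizes in the Sox9 shares was not tested. Over all kept cells Sox9 stood at 451 CPM in WT and 480 CPM in KO, a ratio of 1.06 (0.998 to 1.13). The total was thus close in both libraries while the cells that held it were not the same mix.

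Within progenitor-like cells Sox9 gave 981 UMIs in WT and 469 in KO, a KO over WT ratio of 1.11 (0.991 to 1.24), or 0.15 on the log2 scale of CPM plus 10 that is used for all RNA differences below. In this comparison 3.04% of 5722 genes with at least 50 UMIs differed by at least 2-fold (1.94% higher and 1.1% lower in KO), and none of the 3 members that passed the minimum did. All genes together were shifted upward by 0.21 in KO progenitor-like cells, and relative to that shift Sox9 stood at -0.07. Its direction there also turned under other clustering, filtering and thinning settings. No direction of Sox9 in progenitor-like cells can be read from these libraries.

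In the hepatobiliary-like cells Sox9 had 81 UMIs in each library, from 16 WT cells and 36 KO cells. That is 353 CPM in WT and 148 CPM in KO, a ratio of 0.419 (0.304 to 0.578), or -1.20 on the log2 scale. It was the only 1 of 4 members past 2-fold in this cluster, where 2.05% of 2632 genes were (0.304% lower in KO). In WT, 15 of 16 cells (93.8%, 69.8 to 99.8) had a Sox9 UMI, and in KO 21 of 36 (58.3%, 40.8 to 74.5), at median depths of 13500 and 15106 UMIs. Thinned to 2000 UMIs the shares were 46.2% of 13 WT cells and 22.9% of 35 KO cells. In WT, 2 cells held 36 of the 81 UMIs. Without the 2 cells highest in Sox9 of each library the levels were 257 and 125 CPM and the difference -0.98, a choice made after the values were seen. With cells of at least 2000 genes the cluster held 19 WT and 41 KO cells and the difference was -0.44, so its size depends on which cells enter. The summed hepatobiliary markers of the cluster were 3331 CPM in WT and 4191 CPM in KO, and their part in the Sox9 difference was not tested.

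Sox9 was also higher in KO hormone-cluster cells, with 277 CPM in WT and 454 CPM in KO, a ratio of 1.64 (1.39 to 1.95), short of 2-fold. There 43.4% of 53 WT cells and 70.7% of 99 KO cells had a Sox9 UMI, and 28.8% and 45.5% after thinning. Of the 7 KO cells called doublets, all lay in this cluster, and their part in the result was not tested. In the other 4 clusters the interval of the KO over WT ratio held 1.

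Among cells with Neurog3, Sox9 was seen in 32 of 35 in WT (91.4%, 76.9 to 98.2) and in 47 of 54 in KO (87%, 75.1 to 94.6). Cells without a Neurog3 UMI had Sox9 in 53.1% and 60.3%. In the Neurog3 cluster itself, 6 of 7 WT and 25 of 28 KO Neurog3 cells also had Sox9 at full depth. The remaining cells there had it in 6 of 6 and 12 of 13. Thinned to 2000 UMIs, the counts were 5 of 6 against 7 of 7 in WT and 7 of 15 against 20 of 25 in KO. The thinned KO share was thus lower in cells with Neurog3, 46.7% (21.3 to 73.4) against 80% (59.3 to 93.2), and these intervals overlap. The 5 genes whose levels over 12 points (7 clusters by library, those with at least 20 cells) ran most like Sox9 among 6000 genes were Cldn4 (Pearson r 0.87), Jam3, Fam89a, Ndfip2 and Rtn1 (r 0.86 each). The points share libraries and depths, and the likeness is a description. Cldn4, a tight junction gene, went from 14.6 CPM in KO hepatobiliary-like cells to 168 CPM in KO Neurog3 cells.

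Sox17 RNA was sparse, with 90 UMIs in 33 WT cells and 126 UMIs in 35 KO cells. The hepatobiliary-like cells held 38 of the WT and 100 of the KO UMIs, although they were 3.55% and 9.76% of cells. Their level was 166 CPM in WT (117 to 227) and 183 CPM in KO (149 to 222), a KO over WT ratio of 1.10 (0.753 to 1.65). A Sox17 UMI was seen in 62.5% of WT and 66.7% of KO hepatobiliary-like cells. The interval of the ratio thus held no difference, and the KO library held more of these cells. The direction of that ratio turned under 4 of 12 alternatives.

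Progenitor-like cells had 2 Sox17 UMIs in 108 WT cells and 0 in 37 KO cells. The count of 0 allows a share of KO cells with a UMI of up to 8.11% at the floor of 3 counts, and its exact upper limit is 9.49%. Hepatobiliary-like over progenitor-like cells the ratio was 118 in WT (30.6 to 1014), and in KO at least 37.6-fold when the progenitor-like cells are set to the floor of 3 counts. The exact lower limit of the KO ratio is 30.01, close to that of WT. Between these clusters 3.36% of 4083 genes were past 2-fold in KO (0.906% higher and 2.45% lower in hepatobiliary-like cells) and 4.69% of 4778 in WT, where Sox17 had under 50 UMIs and was not counted. In the hormone, Neurog3 and unnamed mixed clusters there were 0 to 2 Sox17 UMIs per library. Barcodes below the minimum had Sox17 in 0.766% of 653 WT and 1.57% of 446 KO, with medians of 769 and 720.5 UMIs. The share in hepatobiliary-like cells lies well above these.

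The Ube2c cluster held Sox17 as well, with 31 UMIs in 10 of 86 WT cells and 20 UMIs in 5 of 21 KO cells. Those are 81.9 CPM (55.6 to 116) and 225 CPM (137 to 347), a ratio of 2.75 (1.48 to 4.98) and a log2 difference of 1.36. It was 1 of 4 members past 2-fold here, where 4.39% of 1345 genes were (1.71% higher in KO). The KO value rests on 5 cells, with up to 7 of the 20 UMIs in a single cell. The share of cells with Sox17 was 11.6% in WT (5.72 to 20.3) and 23.8% in KO (8.22 to 47.2). Thinned to 2000 UMIs, the levels were 67.9 CPM in WT (33.9 to 121) and 158 CPM in KO (57.9 to 344). The intervals of the shares and of the thinned levels overlap between the libraries, so the size of this difference is not settled. Other genes differed in this cluster too: Hhex, an endoderm transcription factor gene of the hepatobiliary list, was 97.7 CPM in WT and 371 CPM in KO (1.82). Of 10 cell cycle genes 6 met the minimum and 3 (Top2a, Ccnb1 and Ccna2) were past 2-fold higher, with a list median of 0.88 against 0.07 over all genes. That list summed to 2126 CPM in WT, between the 2079 CPM of WT progenitor-like and the 2252 CPM of WT mesenchyme-like cells, and to 3431 CPM in KO. Their part in the Sox17 difference was not tested. Its 10 WT Sox17 cells had a median of 4.5 of 16 hepatobiliary markers and 3718 CPM over that list, against 2 markers and 1065 CPM in the 76 cells without Sox17. Progenitor markers ran the other way, with 714 CPM in WT Sox17 cells and 1830 CPM in the rest, and 639 and 1565 CPM in KO. In KO the hepatobiliary list stood at 2438 CPM in the 5 Sox17 cells and 1329 CPM in the other 16. By summed CPM, Sox17 cells of this cluster were thus higher in hepatobiliary and lower in progenitor markers in both libraries. By the number of progenitor markers detected this held in WT only, with medians of 2 with Sox17 and 4 without. In KO that median was 3 in both sets of cells. Median depth was 5772 against 4203 UMIs in WT and 9058 against 2549 in KO. Elsewhere the hepatobiliary list was not always higher in Sox17 cells. In hepatobiliary-like cells it was 3488 CPM with Sox17 and 2864 CPM without in WT, but 3829 and 5059 CPM in KO. In mesenchyme-like cells it was 1101 and 1275 CPM in WT, and 2477 and 1727 CPM in KO.

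Mesenchyme-like cells held 19 Sox17 UMIs in 11 WT cells and 3 UMIs in 3 KO cells. Endothelial cells express Sox17 and had no cluster of their own, and 9 of 10 endothelial markers were raised in the mesenchyme-like cluster. In WT, 4 of the 11 Sox17 cells and 6 of the 143 others had at least 3 endothelial markers, with 453 and 134 CPM over the list. In KO, 0 of 3 and 14 of 97 did. Median depth was 8893 against 2312 UMIs in WT, and the part of endothelial cells in these UMIs was not tested. In hepatobiliary-like cells no cell reached 3 endothelial markers, and the list summed to 65.4 CPM in WT with 7 of 10 genes at 0 and to 113 CPM in KO with 5 at 0. Cdh5, Tie1, Tek and Erg were at 0 in both. Cells with Sox17 held 64 CPM of the list in WT and 140 CPM in KO, and those without 69.4 and 49.7 CPM. The part of these markers in the Sox17 level was not tested.

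Levels that ran most like Sox17 over the same 12 points were those of Znhit3 (r 0.92), Ifitm3 (0.89), Fam162a (0.88), Ptrhd1 (0.88) and Tmem160 (0.86). Ifitm3, an interferon-induced membrane protein gene, stood at 180 CPM in KO Ube2c-cluster and 148 CPM in KO hepatobiliary-like cells against 4.15 CPM in the KO hormone cluster.

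**Figure D2:**
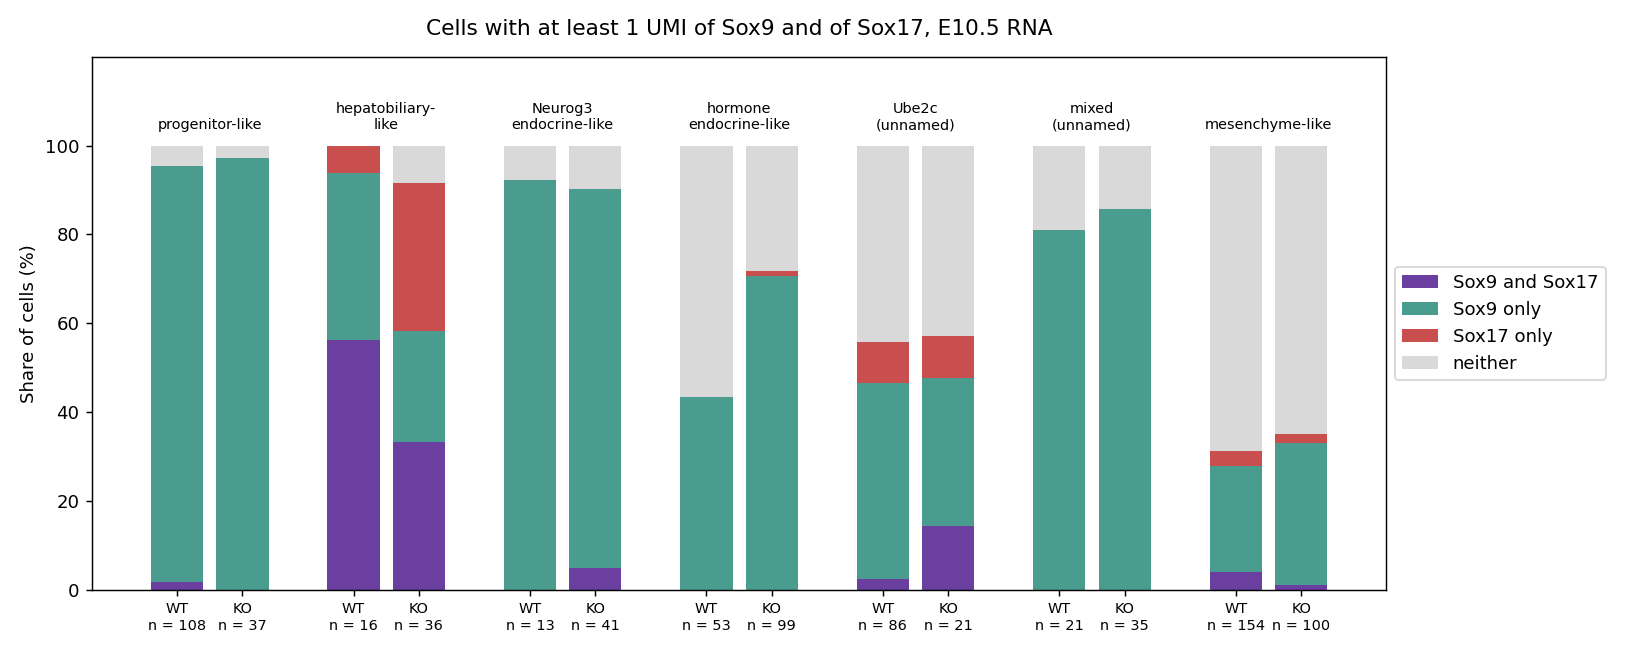
Share of cells (y axis, percent) with a UMI of both Sox9 and Sox17, of 1 of them or of neither, for WT and KO in each E10.5 cluster (x axis, with the number of cells). Cells with Sox17 alone made up 1 of 16 WT and 12 of 36 KO hepatobiliary-like cells.

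Sox9 and Sox17 were seen together in 19 WT and 18 KO cells, of which 9 and 12 lay in the hepatobiliary-like cluster. In WT another 6 were mesenchyme-like. After thinning to 2000 UMIs, 5 WT and 2 KO cells had both, 1 of them in each library hepatobiliary-like. Of 16 WT cells there, 9 had both, 6 Sox9 alone, 1 Sox17 alone and 0 neither. Of 36 KO cells, 12 had both, 9 Sox9 alone, 12 Sox17 alone and 3 neither. The share with both was 56.2% in WT (29.9 to 80.2) and 33.3% in KO (18.6 to 51), and these intervals overlap. The product of the single shares would give 58.6% and 38.9%, so in neither library did the genes share cells more than their own frequencies give.

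Over hepatobiliary-like and progenitor-like cells together, 11 of 12 WT Sox17 cells also had Sox9 (91.7%, 61.5 to 99.8), and 12 of 24 KO Sox17 cells did (50%, 29.1 to 70.9). Cells without Sox17 had Sox9 in 95.5% of WT and 91.8% of KO cases. After thinning to 2000 UMIs the counts of Sox17 cells with Sox9 were 2 of 6 in WT and 1 of 9 in KO, so both shares depend on depth and the thinned ones rest on few cells. Cells with both had median depths of 15879 and 17175 UMIs, and those with Sox17 alone 10907 and 13874. None of the cells with both was called a doublet, in any cluster.

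**Figure D3:**
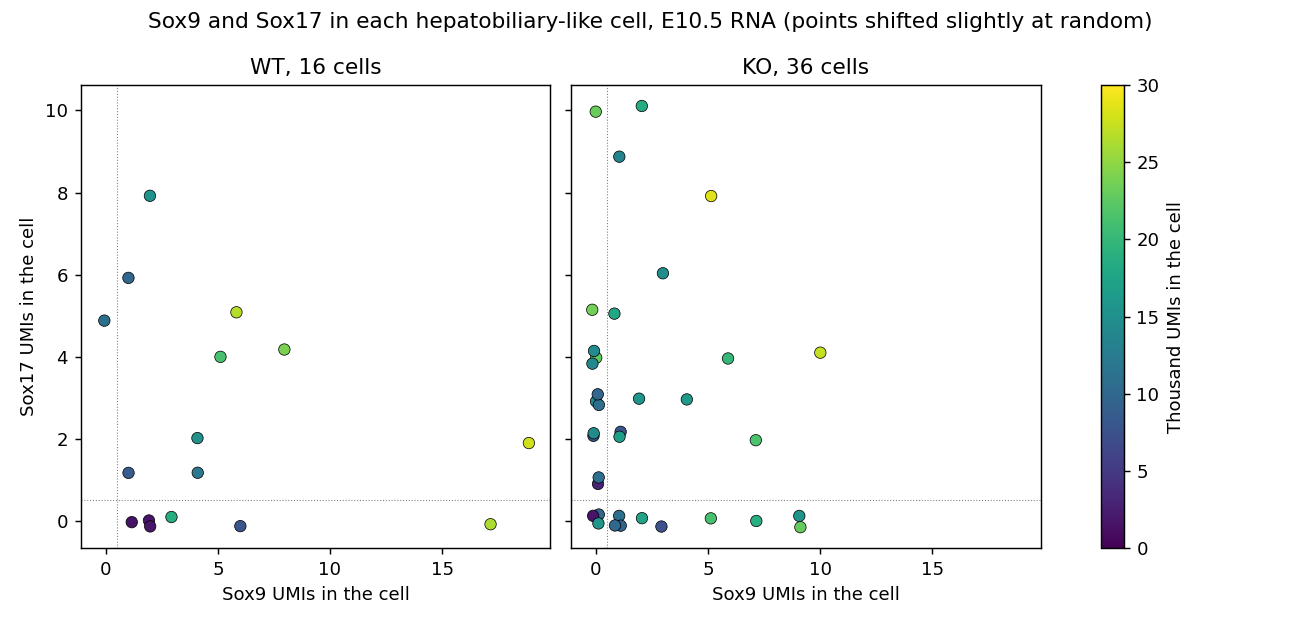
Sox9 UMIs (x axis) and Sox17 UMIs (y axis) in each hepatobiliary-like cell of E10.5, WT left and KO right; each point is 1 cell, coloured by its total UMIs and shifted slightly at random. The 12 KO cells at 0 Sox9 and above 0 Sox17 contrast with 1 such WT cell, and 2 WT cells at 17 and 19 Sox9 UMIs hold much of the WT total.

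In the cells with both genes the median was 4 Sox9 and 4 Sox17 UMIs in WT and 2.5 Sox9 and 4 Sox17 UMIs in KO. Those cells held 33 of the 38 WT Sox17 UMIs of the cluster, but 58 of the 100 KO ones, with 42 in cells without Sox9. In the Ube2c cluster 2 of 10 WT Sox17 cells and 3 of 5 KO Sox17 cells had Sox9. In the mesenchyme-like cluster they were 6 of 11 and 1 of 3. Both Sox17 cells of the WT progenitor-like cluster and both of the KO Neurog3 cluster had Sox9 as well, each with 1 Sox17 UMI.

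Sox4 and Sox11, both of the SoxC group, were higher in KO in every cluster but the hepatobiliary-like one, where their sign depended on the settings. For each gene the KO level lay above WT in 6 of 7 clusters, and in 5 of them the interval of the ratio lay above 1. The interval also held 1 for Sox4 in the Ube2c cluster (1.29, 0.797 to 2.02) and for Sox11 in the Neurog3 cluster (1.13, 0.773 to 1.67). In progenitor-like cells Sox4 went from 563 CPM (525 to 603) to 1065 CPM (985 to 1150), a ratio of 1.89 (1.70 to 2.10) and a log2 difference of 0.91. Sox11 likewise went from 537 CPM (500 to 576) to 1075 CPM (995 to 1160), a ratio of 2.00 (1.80 to 2.22) and 0.99. Relative to the shift of all genes the differences were 0.69 and 0.77. Under the alternatives they ranged from 0.45 to 1.01 for Sox4 and from 0.51 to 1.00 for Sox11, all above 0.

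**Figure D4:**
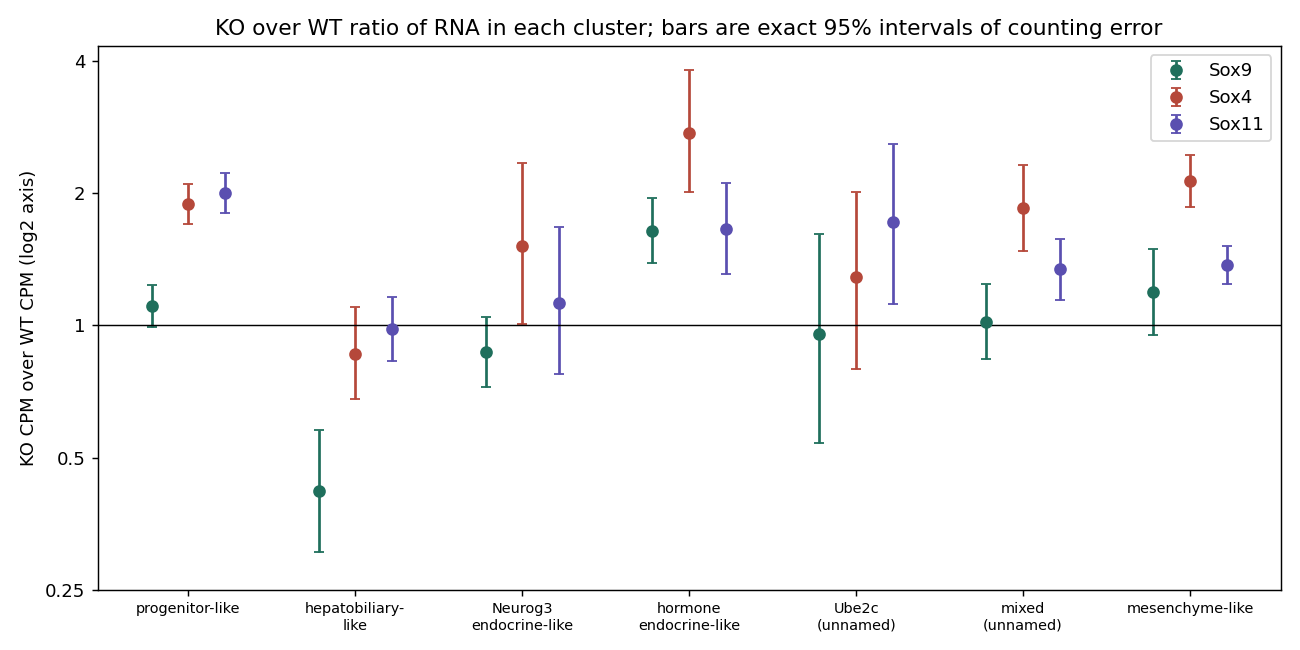
KO over WT ratio of CPM (y axis, log2 scale) for Sox9, Sox4 and Sox11 in each E10.5 cluster (x axis); bars are exact 95% intervals of counting error and the line marks 1. Sox4 and Sox11 lie above 1 in every cluster but the hepatobiliary-like one, where their sign turns under some settings and Sox9 is at 0.419. The bars also cross 1 for Sox4 in the Ube2c cluster and for Sox11 in the Neurog3 cluster.

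Sox4 passed 2-fold in mesenchyme-like cells, with 425 CPM in WT and 904 CPM in KO (log2 difference 1.07), where 0.705% of 4965 genes did (0.423% higher). It also did in the hormone cluster, with 71.7 CPM in WT and 197 CPM in KO (1.34), where 0.641% of 5772 genes did (0.364% higher). In each of these clusters it was 1 of 3 members that passed the minimum. Sox11 passed 2-fold in no cluster, where the share of genes past 2-fold was 0.876% in the unnamed mixed, 2.25% in the Neurog3 and up to 4.39% in the Ube2c cluster. It stood at 993 CPM in WT and 1363 CPM in KO mesenchyme-like cells (0.45), and at 142 and 235 CPM in the hormone cluster (0.69). The unnamed mixed cluster had 266 and 492 CPM of Sox4 (0.86) and 565 and 757 CPM of Sox11 (0.42). In the Neurog3 cluster the values were 238 and 361 CPM of Sox4 (0.58) and 301 and 339 CPM of Sox11 (0.17), and in the Ube2c cluster 227 and 292 CPM (0.35) and 222 and 382 CPM (0.76).

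In the hepatobiliary-like cells Sox4 was 453 CPM in WT (370 to 549) and 391 CPM in KO (341 to 447), and Sox11 was 872 CPM (755 to 1002) and 854 CPM (778 to 935). The ratios were 0.863 (0.680 to 1.10) and 0.979 (0.828 to 1.16), and both intervals hold 1. Their sign turned under 5 of 12 alternatives for Sox4 and 6 of 12 for Sox11. The 12 alternatives, here and below, include resolution 0.3 and no cell filter, where the class by rule was an endocrine cluster. Those settings say nothing about hepatobiliary-like cells. Without the 2 cells of each library highest in Sox9 the log2 differences were 0.11 and 0.18, in place of -0.21 and -0.03. In KO, Sox4 was lower in hepatobiliary-like than in progenitor-like cells by a ratio of 0.367 (0.313 to 0.429), and in WT by 0.805 (0.650 to 0.989). Sox11 was lower in KO (0.794, 0.704 to 0.895) and higher in WT (1.62, 1.38 to 1.90), a sign that turned under 3 of 12 alternatives, among them cells of at least 2000 genes (-0.07 on the log2 scale). In KO these 2 clusters had Sox9 and Sox4 past 2-fold lower and Sox17 higher.

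Barcodes below the gene minimum held Sox4 at 362 CPM in WT and 597 CPM in KO, so the same direction was present outside the kept cells, and its part in the clusters' values was not tested. For Sox11 these barcodes stood at 1054 and 1146 CPM. Over all kept cells 0.627% of 10367 genes and none of 4 members passed 2-fold. Sox4 differed by 0.46 and Sox11 by 0.35 there, or 0.28 and 0.18 relative to a shift of all genes of 0.18. Of 10 cell cycle genes none passed 2-fold in progenitor-like cells, with a median of 0.34 against 0.18 over all genes.

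Sox2 was near absent from the RNA, with 12 UMIs in WT and 17 in KO cells, and passed the minimum in no cluster. Hepatobiliary-like cells had 0 and 1 UMIs, progenitor-like cells 3 and 4, and mesenchyme-like cells 8 and 4. The hormone cluster had 0 in WT and 6 in KO, 3 of them in 1 cell. Of the foregut and stomach list 1 of 8 genes, Barx1, passed the minimum in progenitor-like cells, with a difference of 0.36.

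Of the other numbered Sox genes, 4 had at least 50 UMIs in the kept cells. Sox12, the remaining SoxC gene, had 318 UMIs in WT and 331 in KO (77.4 and 82.5 CPM) and in progenitor-like cells 57.3 and 73 CPM, a ratio of 1.27 (0.864 to 1.85). Sox5 had 123 and 159 UMIs, with 33.6 and 53.5 CPM in progenitor-like cells (1.59, 0.991 to 2.54). Sox13 had 104 and 81 UMIs and was 69.8 CPM in WT hepatobiliary-like (16 UMIs) against 30.1 CPM in WT progenitor-like cells, a ratio of 2.32 (1.22 to 4.20). In KO these clusters stood at 32.9 and 25.9 CPM, a ratio of 1.27 (0.611 to 2.66) that holds 1, with too few UMIs for the minimum. Sox6 had 70 and 56 UMIs. None of these 4 passed 2-fold between genotypes in any cluster in which it met the minimum. The endothelial genes Sox7 and Sox18, relatives of Sox17 in the SoxF group, had 3 to 8 and 2 to 6 UMIs per library.

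The lists of genes that go with Sox9 and Sox17 were chosen with earlier results of these data known. Their counts and medians are thus a description and no test. In progenitor-like cells several of their members were past 2-fold. Of 16 Sox9-linked progenitor and duct genes, 11 met the minimum, and Spp1 (osteopontin, a progenitor and duct gene) and Krt19 passed 2-fold higher in KO with log2 differences of 1.61 and 1.11, with none lower. Spp1 went from 157 to 499 CPM. The lowest of the list was Notch1 at -0.74, a receptor of the pathway that keeps progenitors undifferentiated. Of 11 biliary and hepatic genes 7 met the minimum, and Onecut2 (2.51), Hhex (1.73), Itih2 (1.64) and Ttr (1.08) were past 2-fold higher and none lower. Over all 5722 genes 1.94% were higher. The medians were 1.08 for this list, 0.42 for the Sox9-linked list and 0.18 for all genes tested. The summed hepatobiliary markers of these cells were 953 CPM in WT and 2356 CPM in KO, and Sox17, as above, was at 2 and 0 UMIs there.

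In hepatobiliary-like cells 2.05% of all genes were past 2-fold, so a count of 0 among 6 genes is no result about a list. Of the biliary and hepatic genes 6 met the minimum and 0 passed 2-fold either way, from Itih2 at 0.79 to Afp at 0.05. Of the Sox9-linked genes 6 met it and 0 passed, from Notch1 at 0.44 to Onecut1 at -0.82. Sox9 at -1.20 lay below every gene of both lists that met the minimum.

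The ATAC matrices give each cell a gene score, the deposited measure of open chromatin over a gene, which sums to 10000 over the 8269 genes of a cell. The number of fragments behind a score is unknown and the score is not per length, so levels are compared within a gene. At E10.5 there were 838 WT and 700 KO cells, and at E13.5 there were 2314 and 602. At E13.5 a red-cell-like cluster held 140 WT and 270 KO cells and was left out below. Barcode names of the E13.5 libraries carry different months for WT and KO, so for them the month and the genotype cannot be told apart.

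**Figure D5:**
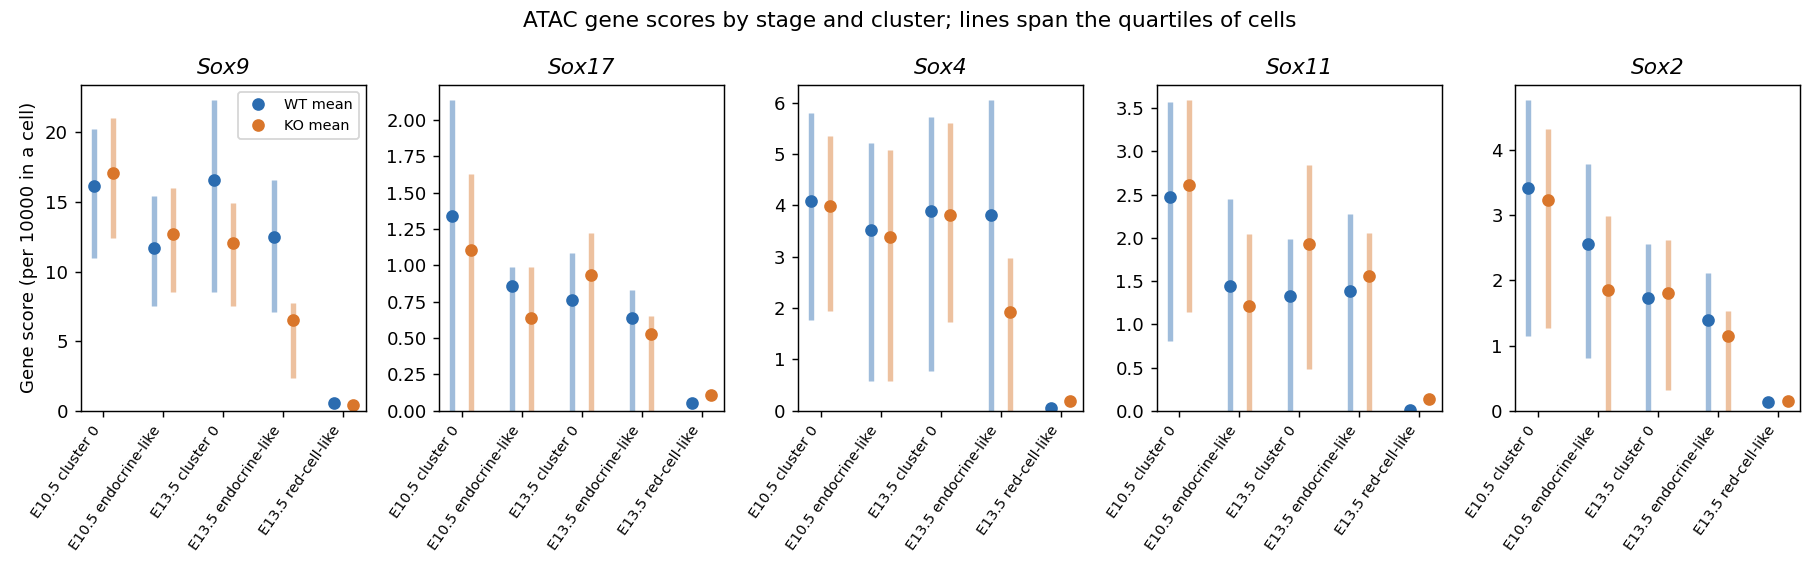
ATAC gene scores of the 5 Sox genes (y axis, per 10000 in a cell) by stage and cluster (x axis) for WT in blue and KO in orange, 1 library each; points are means over cells and lines span the lower to the upper quartile of cells. Sox9 scores were alike at E10.5 and lower in KO at E13.5, and red-cell-like cells were near 0 for all 5 genes. The cluster with the fewest genes above 0 per cell is not drawn at either stage (284 WT and 190 KO cells at E10.5, 894 and 66 at E13.5).

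At E10.5 the mean Sox9 score was 16.2 in WT and 17.2 in KO (log2 ratio 0.08), and it was above 0 in 96.3% and 97.4% of cells. Quartiles were 9.62 to 20.8 in WT and 10.8 to 21.2 in KO, so the cells overlapped widely. The endocrine-like cluster was lower than the largest cluster, with 11.7 against 16.2 in WT and 12.7 against 17.1 in KO. At E13.5 without red-cell-like cells the WT mean was 16.2 and the KO mean 11.3. The log2 ratio was -0.51, at percentile 1.44 of the ratios of 8223 genes. None of the 5 members passed 2-fold at either stage, where 0.0122% of 8219 genes did at E10.5 and 0.195% of 8223 at E13.5. Within clusters the E13.5 difference was -0.46 in the largest (16.6 and 12.1) and -0.94 among endocrine-like cells (12.4 and 6.50, with 48 KO cells). With red-cell-like cells left in it was -1.24, past 2-fold, as 1.36% of 8208 genes were lower. The share of cells above 0 was 94% and 94.3%.

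Across stages the WT Sox9 score moved by -0.01 on the log2 scale from E10.5 to E13.5, and the KO score by -0.60. Sox2 was lower at E13.5 in both, by -0.94 in WT and -0.74 in KO, from 3.14 to 1.64 and from 3.21 to 1.92. Sox11 moved by -0.85 in WT and -0.23 in KO, and Sox17 by -0.74 in WT and 0.13 in KO. Sox4 moved by -0.06 and -0.12. None of these passed 2-fold. In WT 0.0974% of 8213 genes were past it upward and 0.329% downward, and in KO 0.122% of 8225 each way. Dissected progenitor tissue at E10.5 and whole pancreas at E13.5 differ in makeup, and stage and dissection cannot be told apart. The median number of genes above 0 per cell went from 4846 to 3509.5 in WT and from 5181.5 to 5408.5 in KO. The part of these gene numbers in the stage changes was not tested.

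At E10.5 the Sox17 score was 1.41 in WT and 1.07 in KO. This log2 ratio of -0.40 was at percentile 0.986 of 8219 genes, while the shares above 0 were equal at 57.4%. At E13.5 the WT score was 0.843 and the KO score 1.16 (0.47), with 32.9% and 54.2% of cells above 0. By cluster that difference was 0.29 in the largest and -0.28 among endocrine-like cells. The WT cells at E13.5 had a median of 3509.5 genes above 0 and the KO cells 5408.5, and their part in that share was not tested. No ATAC cluster had hepatobiliary markers as its leading list, so the Sox17 score could not be placed in such cells. Since Sox9 was above 0 in nearly every cell, 98.5% of WT and 99.5% of KO cells with a Sox17 score at E10.5 also had a Sox9 score, against 93.3% and 94.6% of the others.

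The Sox4 score did not follow its RNA, with 4.05 in WT and 3.59 in KO at E10.5 (log2 ratio -0.17) where KO RNA was higher over all cells. At E13.5 it was 3.88 and 3.31 (-0.23), with -0.03 in the largest cluster and -0.99 among endocrine-like cells (3.82 and 1.92). By the share of cells above 0 the sign of Sox4 turned at both stages (0.07 and 0.28). The Sox11 score was 2.21 and 2.47 at E10.5 (0.16) and 1.23 and 2.10 at E13.5 (0.78, percentile 99.5), with 0.54 in the largest cluster. In the E13.5 cluster with few genes above 0 per cell (894 WT and 66 KO cells), Sox11 and Sox17 passed 2-fold upward. Mean scores gave 1.54 for Sox11 (1.06 and 3.07) and 1.25 for Sox17 (1.01 and 2.40), where 3.49% of 7629 genes passed. The KO means rest on 21 cells above 0 for Sox11 and 19 for Sox17. By the share of cells above 0 the log2 ratios were 0.52 and 0.58, short of 2-fold. Sox11 was above 0 in 22.1% of WT (19.5 to 25) and 31.8% of KO cells (20.9 to 44.4). Sox17 was above 0 in 19.2% (16.7 to 21.98) and 28.8% (18.3 to 41.3). For both genes these intervals overlap. Sox2, close to absent as RNA, had scores of 3.14 and 3.21 at E10.5 and 1.64 and 1.92 at E13.5. A score above 0 therefore did not go with RNA for this gene.

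Of the other Sox genes 7 are in the ATAC matrices, and none passed 2-fold at E10.5 over all cells or at E13.5 without red-cell-like cells. Their log2 ratios ran from -0.15 (Sox7) to 0.17 (Sox18) at E10.5 and from -0.78 (Sox10) to 0.26 (Sox7) at E13.5. Of 11 biliary and hepatic genes, Onecut2 passed 2-fold at E13.5 with a log2 ratio of 1.60, where 0.195% of all genes did, and of 13 Sox9-linked genes listed none did, with a range from -0.73 (Neurog3) to 0.55 (Krt19).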

How the data were processed

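Single cells of 6 libraries, 1 per group, were analysed from the deposited matrices. The RNA values are raw UMI counts per gene and cell, as deposited, from 10x 3′ libraries per the labels' protocols. The ATAC values are a deposited normalized signal, a score per gene and cell that sums to 10000 in each cell, per the values themselves. The build was mm10, per the submitters' processing notes, and the aligner and counter were not given in the sources used here. No column of another series' samples was found.

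RNA barcodes with at least 1000 genes were kept (mitochondrial genes are not listed in the matrix) and clustered with scanpy 1.11.5 and leidenalg 0.10.2 (2000 variable genes, 30 components, 15 neighbours, resolution 0.5 for RNA and 0.3 for ATAC, seed 1), without Ptf1a, the acinar genes and all Sox genes. Cluster names come from marker lists, and clusters without a clear leading list stayed unnamed. Doublets were called with scanpy's scrublet, 4 in WT and 7 in KO, and kept. UMIs were summed per library and cluster as CPM. Log2 differences are of CPM plus 10, for genes with 50 or more UMIs summed over WT and KO, and called means past 2-fold. ATAC log2 ratios are of mean scores, for genes whose score exceeded 0 in 10% or more of either library's cells. Ratios have exact conditional, CPM exact Poisson and shares exact Clopper-Pearson 95% intervals, and the floor is 3 counts. The depth of each library is its UMI total, and no fragment depth is known for ATAC. The ratio code was tested on simulated data.

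The genes named in the text are the 5 members, the other Sox genes with at least 50 UMIs or in the ATAC matrices, the members of context lists past 2-fold or else their extremes, and for Sox9 and Sox17 the 5 genes most alike in log2(CPM + 10) among genes with at least 200 UMIs. Sox7 and Sox18 were added for their group, and Cftr, Alb and Krt19 for the name of a cluster, after their values were seen. The members and lists were chosen with earlier results of these data known. Alternatives changed the resolution (0.3 or 0.8 for RNA, 0.5 for ATAC), the clustering genes, the cell minimum, doublets, depth (thinning to 2000 UMIs), pseudocount, scaling, the minimum and the ATAC cells and measure. Leaving out the cell of each library highest in Sox17, or the 2 highest in Sox9, was added after seeing the data.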

Additional observations from a re-analysis of the deposited data

Results flagged for a closer look

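For 5 pairs of effects the estimates had opposite signs, and none of these differences was tested, since each effect rests on 1 library per genotype. The KO over WT log2 ratio of the Sox9 ATAC score was 0.08 at E10.5 and -0.51 at E13.5, a difference of -0.60. That of Sox17 was -0.40 and 0.47, a difference of 0.87. By the share of cells above 0, the E13.5 value of Sox9 and the E10.5 value of Sox17 were near 0 (0.0039 and 0.00075). In RNA at E10.5 the KO over WT difference of Sox9 was -1.20 in hepatobiliary-like and 0.15 in progenitor-like cells, -1.35 apart. That of Sox4 was -0.21 and 0.91, -1.12 apart. That of Sox11 was -0.03 and 0.99, -1.02 apart. In each RNA pair the smaller estimate has a ratio interval that holds 1: Sox9 in progenitor-like cells (0.991 to 1.24), and Sox4 (0.680 to 1.10) and Sox11 (0.828 to 1.16) in hepatobiliary-like cells. The signs of these 3 turned under 6, 5 and 6 of 12 alternatives. The alternatives include resolution 0.3 and no cell filter, where no hepatobiliary cluster formed, so the counts for Sox4 and Sox11 are not all about hepatobiliary-like cells. Since the 3 intervals hold 1, opposite directions are not shown.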

How the results depend on the processing

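Differences are KO over WT on the log2 scale unless said otherwise. In progenitor-like cells Sox9 turned from 0.15 to -0.46 at resolution 0.3, -0.068 at resolution 0.8, -0.28 with no cell filter, -0.19 with cells of at least 2000 genes, -0.16 after thinning and -0.067 with median-of-ratios scaling. Sox17 in hepatobiliary-like cells went from 0.13 to -0.74 after thinning. At resolution 0.3 and with no cell filter no hepatobiliary cluster formed. The class by rule was then an endocrine cluster, and the progenitor cluster held 40 and 45 WT and 100 KO Sox17 UMIs. There Sox17 in the hepatobiliary over the progenitor class was -1.77 and -1.71 in WT (3.95 otherwise) and -2.95 and -2.86 in KO (4.27 otherwise). Sox9 between genotypes in that class was 0.35 and 0.32, and in KO over the progenitor class 0.33 and 0.30. With a pseudocount of 1 CPM the KO Sox17 value was 7.52. Thinning put Sox17 cells with Sox9 at 33.3% in WT and 11.1% in KO. By the share of cells above 0, the ATAC difference of Sox17 was 0.00075 at E10.5 and 0.721 at E13.5, and that of Sox9 at E13.5 was 0.0039. Beyond what the missing cluster shows, the cause was not tested. Sox4 and Sox11 in progenitor-like cells stayed above 0 under all 12 alternatives. No paired analysis was possible because each group is 1 library and the values come from no test. The depth limits Sox17 and Sox2, and counting intervals leave out variation between embryos.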
